A study of Mus musculus with 20 samples.

Results

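The early transient regions are stretches of chromatin in 3T3-L1 cells that were listed as open 2 hours and 4 hours after hormonal induction, but not before it and not on day 6. They were chosen by merging all DNase I hypersensitive site (DHS) peaks that overlapped by 1 bp or more and keeping the merged regions with a peak in the 2 hours and 4 hours lists and none in the day 0 and day 6 lists. This gave 2768 of 46760 regions (5.92%). Presence in those 4 lists defines the regions and is no result. The day 1 and day 2 lists entered through the merging alone, and the 13 chromatin immunoprecipitation sequencing (ChIP-seq) lists were not used to choose the regions.

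3T3-L1 is a mouse preadipocyte line that turns into adipocytes in culture. Per the labels, the cells were grown in calf serum and, 2 days after reaching confluence (day 0), received fetal bovine serum with insulin, dexamethasone and 3-isobutyl-1-methylxanthine; from day 2 the medium held insulin and fetal bovine serum, and later the serum alone. DHS-seq, which sequences DNA released by a light DNase I digestion of nuclei, was done on day 0, at 2 hours, at 4 hours and on days 1, 2 and 6. ChIP-seq was done for C/EBPbeta (day 0, 2 hours, 4 hours, day 2), C/EBPdelta (day 0, 4 hours), GR, Stat5a and RXR (4 hours), PPARgamma (days 2 and 6) and RNA polymerase II (Pol II; day 0, 4 hours). Each of these 19 groups was 1 library of the same line, so no difference could be tested against replicate spread and no p-value is given. The lists hold no expression values, and the cell type was not checked against marker genes.

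Chromatin that DNase I cuts readily is depleted of packed nucleosomes and often holds promoters or enhancers. C/EBPbeta and C/EBPdelta are transcription factors that act early in adipogenesis, before PPARgamma, the main regulator of the adipocyte programme. GR is the glucocorticoid receptor, to which the dexamethasone of the induction mixture binds; Stat5a is activated by cytokine and growth hormone receptors; and RXR is the partner with which PPARgamma and other nuclear receptors bind DNA. Pol II marks transcribed genes and active promoters.

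The 6 DHS lists differed in length, with 9989 peaks on day 0, 9055 at 2 hours, 31751 at 4 hours, 35389 on day 1, 25097 on day 2 and 11936 on day 6. Read depth was not given in the sources used here, so closed chromatin and a signal that fell below the limit of a short list cannot be told apart. Shares of regions carry exact (Clopper-Pearson) 95% intervals, which cover counting over regions of these libraries only. Regions of 1 library are not replicates of a condition.

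The early transient regions held 2788 peaks of the 2 hours list (30.8% of it) and 2795 of the 4 hours list (8.80%). In 2723 regions there was 1 peak from each, and their middles lay a median of 45 bp apart. The 4 hours peak was the wider in 2323 regions (83.9%), with median widths of 691 bp at 4 hours and 552.5 bp at 2 hours. The other 6118 regions of the 2 hours list likewise had wider peaks at 4 hours, with medians of 837 bp and 593 bp. The merged regions were 354 to 3255 bp wide, with a median of 752.5 bp, against 593 bp for all regions. The definition joins peaks of 2 lists, so the merged width is not independent of it. Day 1 and day 2 peaks also add to the merged width where they are present. For the other regions of the 2 hours list the median was 925 bp. Close to the limits of the definition, 50 regions had a day 0 or day 6 peak within 500 bp without touching it, the nearest at 23 bp, and 2 regions joined their 2 hours and 4 hours peaks through peaks of other times only. On the other side of the limits lay 564 regions that were listed at 2 and 4 hours and still on day 6, and 1039 that were already listed on day 0 but not on day 6.

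Most of the early transient regions were still listed as open on day 1, and somewhat more than 1 in 2 on day 2. On day 1, 2411 of the 2768 were listed (87.1%, interval 85.8 to 88.3; 73.3% of all regions). On day 2, 1471 were listed (53.1%, 51.3 to 55.0; 52.7% of all regions), a share close to the background. Both days listed 1443 regions (52.1%; 41.3% of all regions), day 1 alone 968 (35.0%; 32.0% of all regions), day 2 alone 28 (1.01%; 11.4% of all regions), and neither day 329 (11.9%; 15.3% of all regions). The share listed on day 1 alone was near the background, and few regions were listed on day 2 without day 1, whose list is the longer.

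A like class is formed by the 16166 regions that were first listed at 4 hours and were also absent on day 6. Of the early transient regions 87.1% were listed on day 1 and 53.1% on day 2, against 59.6% (58.8 to 60.4) and 31.3% (30.6 to 32.1) of the regions first listed at 4 hours. Neither day listed 11.9% of the early transient regions, against 35.5% of those first listed at 4 hours. Against other regions open at 2 hours, the early transient regions were the less often listed later. The other 6118 regions of the 2 hours list were listed in 96.1% on day 1 and 89.4% on day 2. Among these, the 564 listed at 2 and 4 hours and still on day 6 had 99.5% and 93.3%. The early transient regions are absent on day 6 by definition, and these classes were not chosen so. The 4 hours peaks differed in width, with a median of 691 bp in the early transient regions and 516 bp in those first listed at 4 hours. When the early transient regions were split into 4 equal width groups by the 4 hours peak, their day 2 shares from narrow to wide were 41.8%, 49.2%, 56.5% and 65.0%, against 26.7%, 38.1%, 46.1% and 53.4% for regions first listed at 4 hours in the same width ranges. The early transient regions were the more often listed in each width group; peak strength was not compared, since the lists hold no height. With the 6 DHS lists shortened to 9055 peaks each by width, 1352 regions met the definition, and 57.0% of them were listed on day 1 and 32.7% on day 2.

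**Figure D1:**
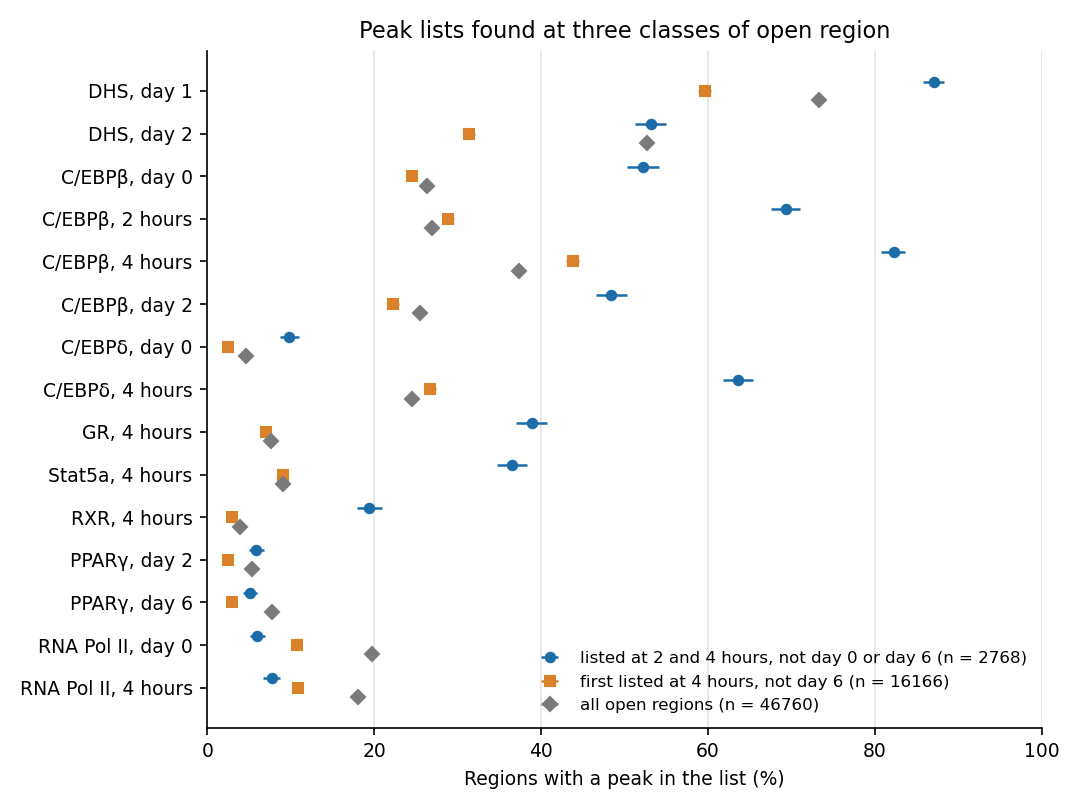
Share of regions (percent, horizontal axis) with a peak in each of the 15 lists not named in the definition, for the 2768 early transient regions (circles), the 16166 regions first listed at 4 hours and absent on day 6 (squares) and all 46760 regions (diamonds); bars are exact 95% intervals over regions. The circles lie far to the right for C/EBPbeta at 4 hours (82.3%) and GR (38.9%), and left of the other symbols for Pol II at 4 hours (7.70%).

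Of the 13 ChIP-seq lists, 10 were found at a larger share of the early transient regions than of all regions, the exceptions being PPARgamma on day 6 and both Pol II lists. C/EBPbeta was the factor found most often. Its 4 hours list touched 2277 early transient regions (82.3%, 80.8 to 83.7; 37.4% of all regions), against 43.8% of the regions first listed at 4 hours. Its peaks were already present at many of the regions before the chromatin was listed as open, since the day 0 list touched 1445 (52.2%, 50.3 to 54.1; 26.3% of all regions). The 2 hours list touched 1919 (69.3%, 67.6 to 71.0; 26.9% of all regions). On day 2 the factor was listed at 1340 (48.4%, 46.5 to 50.3, against 25.5% of all regions). The 564 regions listed at 2 and 4 hours and still on day 6 had it in 63.1% on day 0 and 72.7% at 2 hours. There it was listed in 80.0% at 4 hours and 64.4% on day 2, so C/EBPbeta before opening was not particular to the early transient regions.

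Over time, C/EBPbeta was listed at more of these regions up to 4 hours and at fewer on day 2. Its lists held 20471 peaks on day 0, 19703 at 2 hours, 29957 at 4 hours and 21486 on day 2, so after 2 hours gain or loss of binding and the length of the lists cannot be told apart. Of the 1445 regions listed on day 0, 1420 (98.3%, 97.5 to 98.9) were also listed at 4 hours, against 85.3% of all regions with C/EBPbeta on day 0. Of the 2277 listed at 4 hours, 1335 (58.6%, 56.6 to 60.7) were listed on day 2, a share close to that of all regions with C/EBPbeta at 4 hours (59.2%) and above that of the regions first listed at 4 hours (49.4%, 48.2 to 50.6). C/EBPbeta was listed at all 4 times in 1097 regions (39.6%; 15.3% of all regions) and at none in 450 (16.3%; 55.6% of all regions). Other frequent courses were 2 and 4 hours (323 regions, 11.7%, against 2.80% of all regions) and 4 hours alone (306, 11.1%, against 6.23%). Day 0 to 4 hours was the course of 275 (9.93%, against 4.27%) and 2 hours to day 2 that of 205 (7.41%, against 3.44%).

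**Figure D2:**
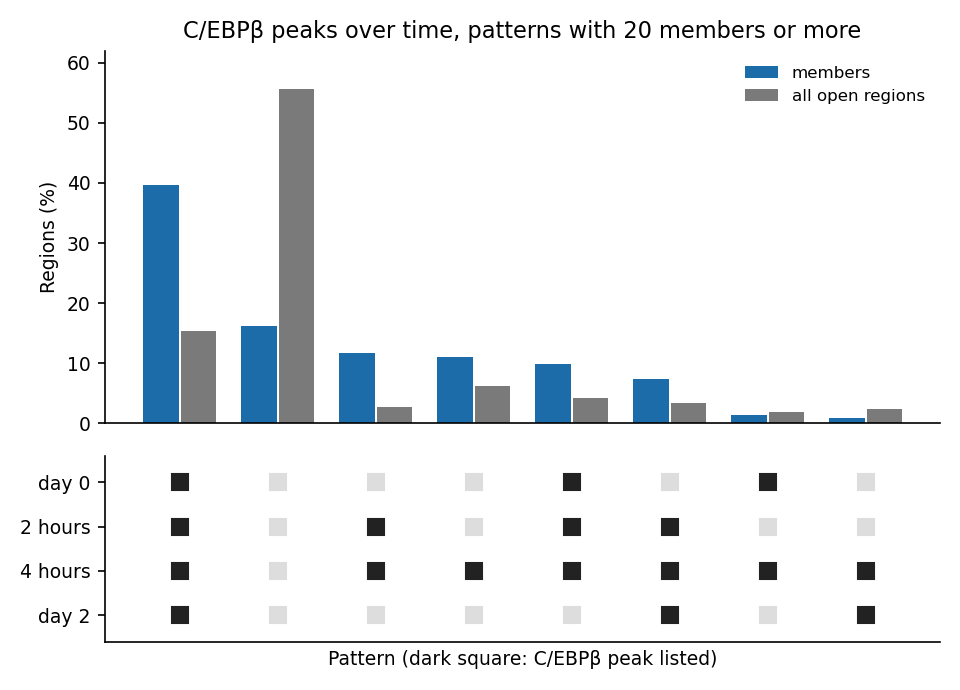
Percent of regions (vertical axis) with each course of C/EBPbeta peaks over day 0, 2 hours, 4 hours and day 2 (dark squares: peak listed), for the 2768 early transient regions (members, left bar of each pair) and all 46760 regions (right bar). Courses with 20 or more early transient regions are drawn; the course with a peak at every time holds 39.6% of the early transient regions and 15.3% of all regions.

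The time at which C/EBPbeta was first listed went with the other factors found later at the same place. At the 1445 regions with C/EBPbeta on day 0, C/EBPdelta at 4 hours was found in 88.5% (86.8 to 90.1), GR in 49.3% (46.7 to 52.0) and RXR in 28.5% (26.2 to 30.9). At the 541 regions where C/EBPbeta was first listed at 2 hours, C/EBPdelta was found in 68.9% (64.9 to 72.8), GR in 51.8% and RXR in a share with an interval of 15.8 to 22.6%. At the 329 where it was first listed at 4 hours, these shares were 24.0%, 17.3% and 3.95%. Between the first pair of classes, the GR share of the 541 regions lies within the interval of the 1445, while the intervals of C/EBPdelta and of RXR do not overlap. C/EBPbeta was kept on day 2 in 76.7%, 37.9% and 6.99% of the 3 classes, in the same order. Other open regions were not split in this way, so whether the order is particular to the early transient regions was not tested.

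C/EBPdelta, the second early C/EBP factor, was listed at most of the regions at 4 hours and at few before induction. Its 4 hours list touched 1760 early transient regions (63.6%, 61.8 to 65.4; 24.5% of all regions) and its day 0 list 271 (9.79%; 4.58% of all regions), and 265 had it at both times. The lists held 18327 peaks at 4 hours and 2581 on day 0, so the size of this gain and the length of the lists cannot be told apart. Of the 1760 regions with C/EBPdelta at 4 hours, 1724 also had C/EBPbeta at 4 hours (98.0%; 93.1% of all regions with C/EBPdelta).

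The 3 factors that answer hormone or cytokine signals, GR, Stat5a and RXR, were each found at a larger share of the early transient regions than of all regions. GR was listed at 1076 (38.9%, 37.1 to 40.7; 7.66% of all regions), Stat5a at 1010 (36.5%, 34.7 to 38.3; 9.09% of all regions) and RXR at 536 (19.4%, 17.9 to 20.9; 3.88% of all regions). The regions first listed at 4 hours had them in 7.01%, 9.06% and 2.91% of cases. In the narrowest group of 4 hours peak widths, GR lay at 30.1% of 691 early transient regions, against 5.32% of 11365 regions first listed at 4 hours; in the widest group at 52.6%, against 12.2%. Seen from the factors' side, the early transient regions held 26.3% of the 4080 GR peaks and 25.9% of the 2076 RXR peaks. They held 14.6% of the 6977 Stat5a peaks and 7.72% of the 29957 C/EBPbeta peaks of 4 hours. Among the peaks that overlapped a 4 hours DHS peak, these shares were 34.7%, 35.5%, 29.6% and 16.9% in the same order. The lists differ in length, and its part in these differences was not tested.

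These 3 factors were found together. Of the 1076 regions with GR, 689 had Stat5a and 443 had RXR (64.0% and 41.2%), against 321 and 93 of the 1692 regions without GR. Among all open regions with GR, Stat5a was found in 55.8% and RXR in 33.0%, so the pairing was also seen outside the early transient regions. GR regions also had C/EBPbeta at 2 hours more often (91.8%, 90.0 to 93.4) than regions without GR (55.0%, 52.6 to 57.4), as did all regions with GR (85.2%) against those without (22.1%). Of the 536 regions with RXR, 443 had GR (82.6%, 79.2 to 85.8), against 65.1% (62.8 to 67.3) of all regions with RXR. C/EBPbeta and C/EBPdelta were found at 528 and 515 of the 536, shares close to those of all regions with RXR (96.3% and 94.1%).

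With the 5 factors of 4 hours counted together (both C/EBP factors, GR, RXR and Stat5a), the early transient regions spread over the whole scale from 0 to 5 factors. None of the 5 was found at 366 regions (13.2%; 59.4% of all regions), 1 at 493 (17.8%; 15.6%), 2 at 669 (24.2%; 14.9%), 3 at 482 (17.4%; 5.18%), 4 at 408 (14.7%; 2.97%) and 5 at 350 (12.6%; 1.92%). In all, 1240 regions held 3 or more (44.8%; 10.1% of all regions). Of the 564 regions listed at 2 and 4 hours and still on day 6, 41.0% held 3 or more and 11.9% all 5. A high number of factors was thus not particular to the early transient regions. Read the other way, the early transient regions made up 1.32% of the regions with no factor and 6.75%, 9.59%, 19.9%, 29.4% and 39.0% of those with 1, 2, 3, 4 and 5. Of the 897 regions with all 5 factors, 350 (39.0%, 35.8 to 42.3) were early transient regions, which hold 7.23% of the length of all regions. When each list was limited to the wider 50% of its peaks, 144 had all 5, and with DHS lists of equal length 221, out of fewer early transient regions.

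The 5 factors were seen in 28 of 32 possible combinations. C/EBPbeta with C/EBPdelta was the most frequent, at 539 regions (19.5%, against 13.1% of all regions). Next came C/EBPbeta alone at 389 (14.1%, against 12.7%), a share near the background, and no factor at 366 (13.2%, against 59.4%). All 5 were found at 350 (12.6%, against 1.92%) and all but RXR at 285 (10.3%, against 1.93%). Among regions with any factor, combinations without C/EBPbeta were few in number. The largest was Stat5a alone, at 58 regions (2.10%, against 1.14% of all regions). GR alone was found at 18 (0.650%, against 0.267%) and RXR alone at 3 (0.108%, against 0.0577%).

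**Figure D3:**
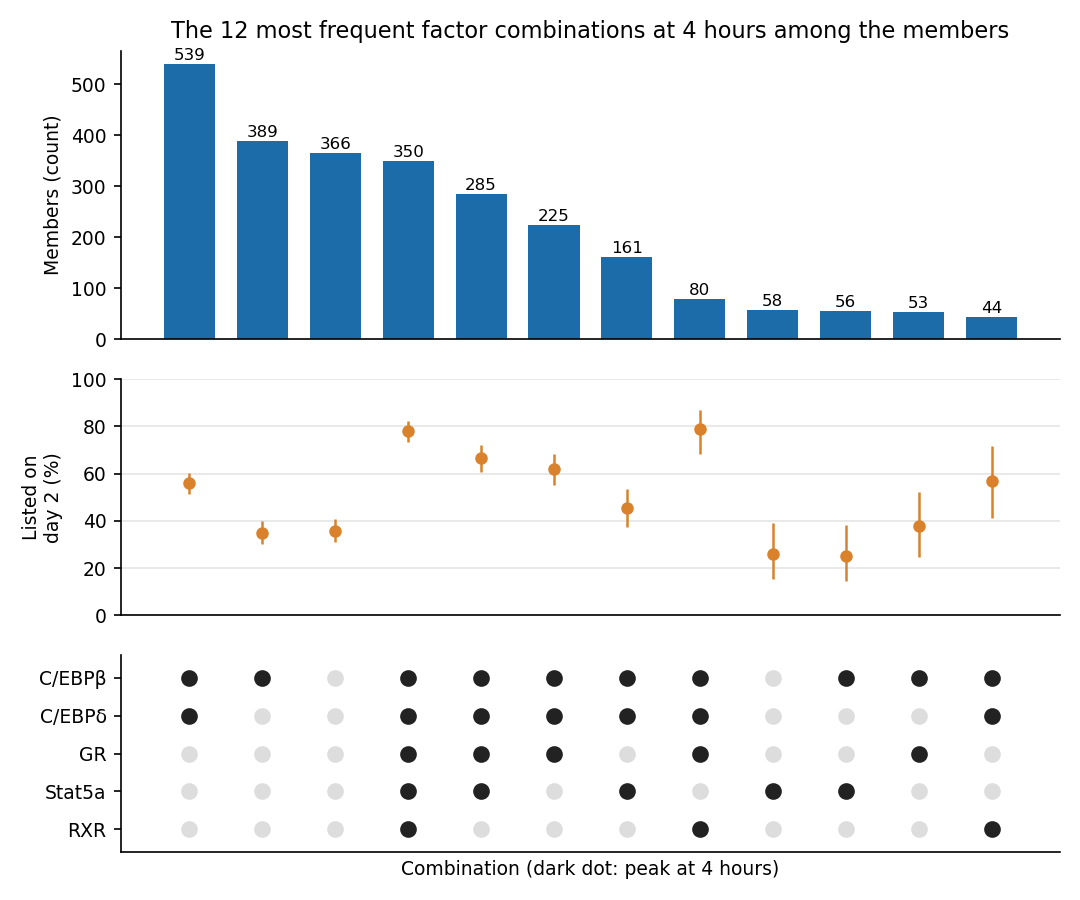
Number of early transient regions (top, vertical axis), percent of them listed as open on day 2 with exact 95% intervals (middle) and the factors present (bottom, dark dots) for the 12 most frequent combinations at 4 hours. The bars run from 539 regions with C/EBPbeta and C/EBPdelta to 44, and the day 2 share is 78.0% for all 5 factors and 35.0% for C/EBPbeta alone.

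The more factors a region held at 4 hours, the more often it was still listed later. On day 1, 81.4%, 81.9%, 83.9%, 90.5%, 92.6% and 95.4% of the early transient regions with 0, 1, 2, 3, 4 and 5 factors were listed, and on day 2, 35.8%, 36.3%, 51.7%, 53.1%, 70.1% and 78.0%. Adjacent numbers were not always separated: the day 2 intervals of 0 and 1 factors, and of 2 and 3, overlap almost fully. Regions with 4 or 5 factors were listed on day 2 in 73.7% of 758 cases, against 35.8% of 366 with none, a difference of 38.0 percentage points (32.0 to 43.6). Of all regions in the 4 hours list, 74.5% of those with 4 or 5 factors and 54.8% of those with none were listed on day 2, and of the regions first listed at 4 hours 53.6% and 27.7%. The share of 73.7% was thus near that of all 4 hours regions, while the share with no factor was lower than theirs. Width moved with the number of factors, with medians of 848 bp for all 5 and 684.5 bp for none. Within 4 equal groups of region width, from narrow to wide, the difference was 38.8, 25.7, 24.6 and 15.3 points. The merged region takes in any day 2 peak, so these groups are partly set by the day 2 list and do not separate width from it. It was 23.9 points for DHS lists of equal length and 29.2 when lists were limited to their wider peaks.

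The day 2 share of the early transient regions also differed by whether C/EBPbeta was still listed on day 2. Of the 1340 regions with C/EBPbeta on day 2, 1009 were listed as open then (75.3%, 72.9 to 77.6), against 462 of the 1428 without it (32.4%, 29.9 to 34.8), a difference of 42.9 points (39.5 to 46.2) that was 28.7 with DHS lists of equal length. For all regions in the 4 hours list these shares were 73.8% and 49.1%, and for the regions first listed at 4 hours 56.5% and 24.1%. Among regions bound by C/EBPbeta at 4 hours, the day 2 share was 75.3% where the factor was still listed on day 2 (n = 1335) and 29.9% where it was not (n = 942). Both lists are of the same day, and whether binding or openness was lost first cannot be told apart. Within the 4 groups of region width, from narrow to wide, the shares were 53.3%, 72.5%, 80.9% and 85.8% with C/EBPbeta on day 2. Without it they were 16.2%, 30.2%, 40.8% and 51.1%. Region width takes in any day 2 DHS peak, so these groups are partly set by the day 2 list and do not separate width from it.

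Among regions without C/EBPbeta on day 2, the number of factors at 4 hours no longer went with the day 2 share. It was 35.3%, 31.9%, 32.1%, 26.5%, 35.6% and 32.4% for 0 to 5 factors (n = 363, 439, 321, 181, 90 and 34). The difference between 4 or 5 factors and none in this class was -0.58 points, with an interval of -9.88 to 9.34 that does not fix its sign. Of the regions first listed at 4 hours and without C/EBPbeta on day 2, 11 of 100 with 4 or 5 factors and 27.2% of 8490 with none were listed on day 2. With C/EBPbeta on day 2 the shares were 72.2%, 69.8%, 69.1%, 79.9% and 82.9% for 1 to 5 factors (n = 54, 348, 301, 318 and 316), and 3 of 3 regions with none. Of the 350 regions with all 5 factors at 4 hours, 316 still had C/EBPbeta on day 2, so the class of 34 without it is small and its interval (17.4 to 50.5) wide.

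**Figure D4:**
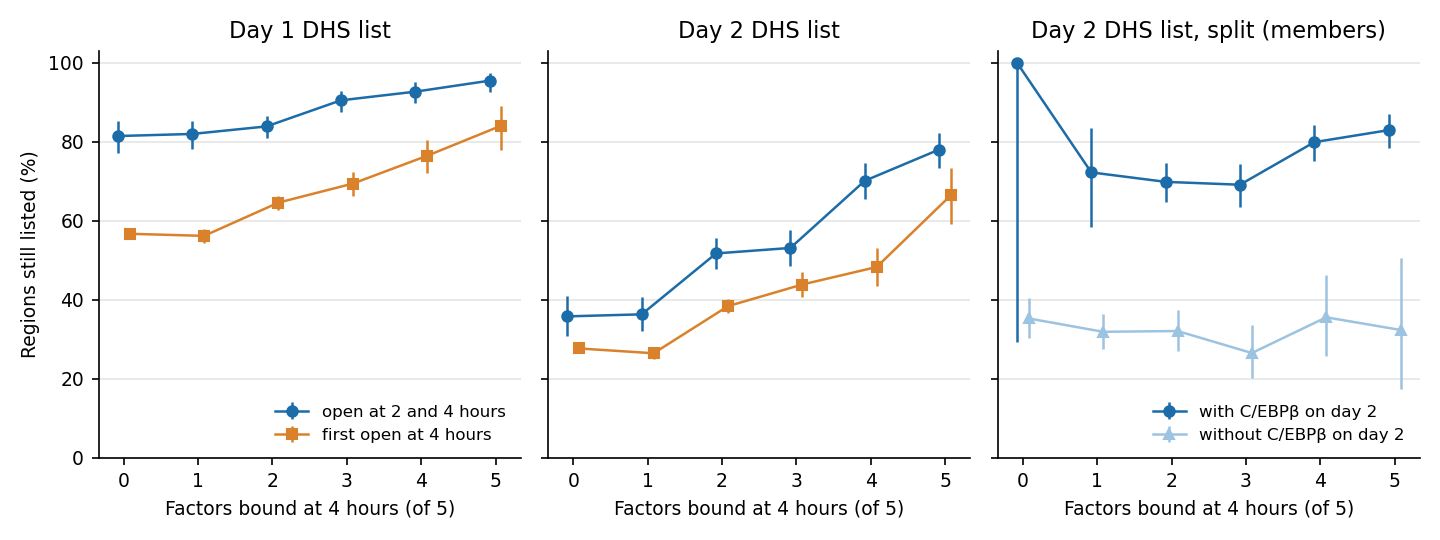
Percent of regions still listed as open (vertical axis) by the number of factors listed at 4 hours (horizontal axis), on day 1 (left) and day 2 (middle) for early transient regions (circles) and regions first listed at 4 hours (squares), and on day 2 (right) for early transient regions with (circles) and without (triangles) C/EBPbeta on day 2; bars are exact 95% intervals over regions. In the right panel the triangles stay between 26.5% and 35.6% at every number of factors.

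The absence of C/EBPbeta and of openness did not always coincide. On day 2, 331 of the 1340 regions with a C/EBPbeta peak had no DHS peak, and 462 of the 1428 without one had a DHS peak. Of all regions with C/EBPbeta on day 2, 75.1% were listed as open that day, near the 75.3% of the early transient regions. Without C/EBPbeta on day 2, 45.0% of all regions were listed, against 32.4% of the early transient regions. The 329 regions listed on neither day 1 nor day 2 had C/EBPbeta at 4 hours in 73.6%, GR in 21.3% and RXR in 6.99% of cases, whereas the 1443 listed on both days had them in 87.5%, 49.3% and 27.7%. Their median widths were 618 bp and 812 bp, and day 1 and day 2 peaks add to the merged width by construction.

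PPARgamma, expressed as adipocytes form, was found at few of these regions. Its day 2 list touched 161 (5.82%, 4.97 to 6.75; 5.32% of all regions), a share near the background, and below it when lists were limited to their wider peaks (4.55%, against 4.83% of all regions). Its day 6 list touched 140 (5.06%, 4.27 to 5.94; 7.73% of all regions), and 76 had it on both days (3.82% of all regions). The 564 regions that were listed at 2 and 4 hours and still on day 6 had PPARgamma in 24.5% on day 2 and 33.7% on day 6, although C/EBPbeta at 4 hours (80.0%) and GR (34.9%) were about as frequent there as at the early transient regions. Being listed on day 6 is the difference in the definition of those classes, and PPARgamma of day 6 comes from the same day.

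Where PPARgamma was found on day 2, C/EBPbeta had nearly always been listed before. Of those 161 early transient regions, 150 had C/EBPbeta at 2 hours (93.2%, 88.1 to 96.5), 120 had GR (74.5%, 67.1 to 81.1) and 97 had RXR at 4 hours (60.2%, 52.2 to 67.9). Of the 1270 regions of the 4 hours list with PPARgamma on day 2, 73.9% had C/EBPbeta at 2 hours, 39.3% GR and 31.2% RXR. PPARgamma on day 2 lay at 18.1% of the regions with RXR at 4 hours, against 2.87% of those without it, and at 11.2% of the regions with GR, against 2.42% of those without it. Of all regions with RXR or with GR, 24.8% and 15.6% had PPARgamma on day 2. With PPARgamma on day 2, 153 of 161 regions (interval 90.4 to 97.8%) were listed as open that day, against 50.6% of the others; for all regions these shares were 95.2% and 50.3%. The 140 regions with PPARgamma on day 6 lay outside the day 6 DHS list by definition; 127 of them (90.7%) had been listed as open on day 2.

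Pol II was less frequent at the early transient regions than at open regions in general. At 4 hours it was listed at 213 (7.70%, 6.73 to 8.75, against 18.1% of all regions). On day 0 it was listed at 166 (6.00%, 5.14 to 6.95, against 19.8% of all regions). At both times it was listed at 97 (3.50%, against 14.8% of all regions). Pol II was listed at 4 hours and not on day 0 (gained) at 116 early transient regions (4.19%; 3.27% of all regions), and on day 0 and not at 4 hours at 69 (2.49%; 4.92% of all regions). Regions with GR had Pol II on day 0 in 2.79%, against 8.04% of those without GR; at 4 hours these shares were 7.16% and 8.04%. Among all regions, GR likewise went with less Pol II on day 0 (4.36%, against 21.0% without GR).

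In the neighbourhood, gained Pol II was about as near as for other open regions, and Pol II listed at both times was less often near. Within 100 kb, 37.8% (36.0 to 39.6) of the early transient regions had a Pol II region gained by 4 hours, against 34.1% of the regions first listed at 4 hours and 36.2% of all regions. Within 10 kb, 12.4% (11.2 to 13.7) had a Pol II region listed at both times, against 19.9% and 26.7%. The Pol II lists held 12558 peaks at 4 hours and 14784 on day 0.

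Factor peaks lay near the middle of the open site, as they did in the regions first listed at 4 hours. Taking the nearest peak in each early transient region, the median distance from the middle of the 4 hours DHS peak was 62 bp for C/EBPbeta, 67.5 bp for GR, 78.5 bp for C/EBPdelta, 87.75 bp for Stat5a and 88.5 bp for RXR. In the regions first listed at 4 hours, whose DHS peaks are narrower, these medians were 55, 62, 65.5, 81.75 and 78 bp in the same order. Pol II peaks of 4 hours lay farther out, at a median of 221 bp, and 21.1% of them were within 100 bp, against 69.7% for C/EBPbeta; the Pol II median in the regions first listed at 4 hours was 145 bp. Within the central 200 bp of each region, C/EBPbeta at 4 hours was still found in 81.3% and GR in 38.4%, almost as in the whole region. Any overlap of a peak with this window counted, and the median peak was 578 bp wide for C/EBPbeta at 4 hours and 721 bp for GR. These shares therefore do not show where in the region the peaks were centred.

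**Figure D5:**
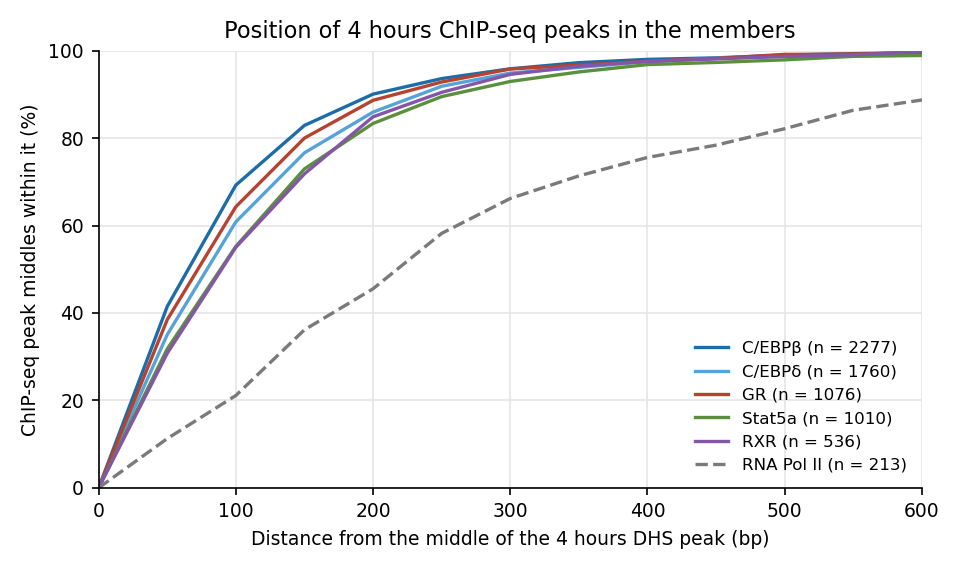
Cumulative percent of ChIP-seq peak middles of 4 hours (vertical axis) within a given distance in bp from the middle of the 4 hours DHS peak (horizontal axis), 1 peak for each early transient region that holds the factor. The 5 factor curves rise steeply, with medians from 62 to 88.5 bp, while the dashed Pol II curve has its median at 221 bp.

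A minority of the early transient regions held no peak of any ChIP-seq list. These were 284 (10.3%; 34.7% of all regions), against 39.1% of the regions first listed at 4 hours. Of the 366 regions with none of the 5 factors at 4 hours, 63 (17.2%) had a factor peak within 1000 bp and 50 (13.7%) had Pol II at 4 hours. C/EBPbeta on day 0 or at 2 hours was found at 19 (5.19%). Among all regions with none of the 5 factors, these shares were 10.1%, 23.1% and 6.19%, so the last was near the background. On day 1, 81.4% of these 366 were still listed as open.

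At the other end, 18 early transient regions were found in 11 of the 13 ChIP-seq lists, the most of any of them, and 33 in 10. Other open regions were not counted in this way, so whether such numbers are particular to the early transient regions was not tested. The widest of the 18, 1662 bp at chr11:16158359-16160020 (mm9, counted from 1, as for all positions), had C/EBPbeta at all 4 times, C/EBPdelta, GR, Stat5a and RXR at 4 hours, PPARgamma on day 2 and Pol II at both times. The region chr17:64951243-64952840 had the same 11 lists. In 3 others, chr1:175479964-175481171, chr5:108675001-108676092 and chr13:37736269-37737354, the 11 lists were all those of the 6 transcription factors, with C/EBPdelta already on day 0 and PPARgamma on days 2 and 6. All 5 were listed as open on day 1 and day 2, then no longer on day 6.

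The widest regions without any ChIP-seq peak were 1513 bp at chr8:123087141-123088653, 1420 bp at chr4:107125296-107126715 and 1353 bp at chr13:21258983-21260335, and each was listed on day 1 and day 2. Among regions with Pol II at 4 hours and not on day 0, the widest was 2455 bp at chr12:25781973-25784427, with all 5 factors and C/EBPbeta at all 4 times. The next, chr6:31075074-31077109, had C/EBPbeta at all 4 times and C/EBPdelta, and chr5:109587900-109589699 had Pol II as its sole ChIP-seq peak and was gone from the list on day 2. The widest regions with PPARgamma on both days were chr2:145500720-145503126, chr17:83575402-83577369 and chr11:42995754-42997715; each had C/EBPbeta at all 4 times and 4 of the 5 factors, the first without Stat5a, the second without RXR and the third without GR.

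The early transient regions lay a median of 101 kb from the nearest other one, and 635 (22.9%) had another within 25 kb. The 16166 regions first listed at 4 hours lay a median of 21.8 kb apart, with 53.3% within 25 kb, but they are far more numerous, so the spacing and the number of regions cannot be told apart. The 635 formed 287 runs, of which 10 held 4 or more regions. The longest run, on chromosome 6 from 31015273 to 31077109, held 6 early transient regions among 15 open regions. Its members differed in binding: 4 had C/EBPbeta at 4 hours, 3 Stat5a, 2 GR, 2 Pol II at 4 hours and none RXR, 1 had no ChIP-seq peak at all, and 4 were still listed on day 2. A run of 5 on chromosome 19 from 36551577 to 36609831 had C/EBPbeta at 4 hours in 4 and GR in 2, with 1 region listed on day 2. A run of 5 on chromosome 1 from 92565707 to 92615949 had C/EBPbeta at 4 hours in 2 and GR in 1, with 1 region listed on day 2. Regions of the same run thus differed in their factors and in their course of openness.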

How the data were processed

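The data were peak lists of DHS-seq and ChIP-seq libraries from 3T3-L1 cells, 1 library per group. Each deposited list gives chromosome, start and end of the authors' peaks in base pairs, with no count, score or height. Positions are on mm9, per the submitters' processing notes. The peak caller, its threshold and the read depth are not given in the sources used here. An input control was not analysed. Neither a genome sequence nor a gene annotation of that build was used here, so regions are named by position, without genes or sequence.

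Peaks of the 6 DHS lists were merged where they overlapped by 1 bp or more, and each merged region was looked up in all 19 lists by the same overlap. Intervals of differences between shares are Newcombe intervals; no test was run. The calculation ran in Python 3.11.15 with SciPy 1.17.1 and NumPy 2.4.6, figures were drawn with Matplotlib 3.10.9, and the steps were tested on simulated peaks. Regions named are the 5 in the most ChIP-seq lists (ties by width), the 3 widest with no ChIP-seq list, with Pol II gained by 4 hours and with PPARgamma on both days, and the 3 longest runs with neighbours at most 25 kb apart. The regions, lists and comparisons were chosen with earlier results of these data known. Alternatives changed the overlap (gaps of up to 500 bp allowed, or 50% of the shorter peak required), the peak width (200 bp), the lists (the wider peaks only, equal length by width), the definition, the merging, and the part of the region scored (the central 200 bp).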

Additional observations from a re-analysis of the deposited data

How the results depend on the processing

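With each list limited to the wider 50% of its peaks, 1583 regions met the definition, 85.5% of them were listed on day 1 and 50.2% on day 2, 144 had all 5 factors, and the day 2 difference between 4 or 5 factors and none was 29.2 points in place of 38.0. With the DHS lists shortened to 9055 peaks by width, these values were 1352, 57.0%, 32.7%, 221 and 23.9 points, neither day listed 36.9%, and the difference with and without C/EBPbeta on day 2 was 28.7 points in place of 42.9. Within the 4 width groups other than the narrowest, the difference by factors was 25.7, 24.6 and 15.3 points. Those groups rest on merged width, which takes in any day 2 peak. The wider 50% and the shortened lists both keep fewer peaks by construction, and beyond that the cause was not tested. The difference between 4 or 5 factors and none without C/EBPbeta on day 2 was -0.58 points. Over the alternatives it ran from -6.05 with DHS lists of equal length to 1.95 with every peak set to 200 bp. It was also positive with the wider peaks (0.83) and with day 1 and day 2 left out of the merging (0.054). In all other alternatives it was negative, and each interval includes 0, so its sign is not fixed. Of the alternative values, 171 of 220 moved by less than their counting interval (or, for counts, by less than 1.5 times). Of the 13 ChIP-seq lists, 10 were more frequent at the early transient regions than among all regions in each alternative except the wider peaks, where 9 were. The width groups, the omission of the shortest day 1 and day 6 peaks, and both results on C/EBPbeta on day 2 were added after the data were seen. No paired analysis was possible because each group held 1 library and the labels carry no replicate numbers, and no replicate could be left out. Read depth is unknown, so an absent peak sets no limit on openness or binding.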

Other observations

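The early transient regions were scarce on the X chromosome. They made up 21 of its 1051 open regions (2.00%, exact 95% interval 1.24 to 3.04), against 4.38% (chromosome 7) to 7.72% (chromosome 6) on the autosomes. The 2 hours DHS list, which the definition requires, had 1.33% of its peaks on X, and the other 5 DHS lists 1.96% to 2.46%. The cause was not tested.

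The 28 early transient regions listed on day 2 but not on day 1 had C/EBPbeta at 4 hours in 25 and on day 2 in 20 cases, and GR in 6. Of the 450 regions in no C/EBPbeta list, 62 had Stat5a, 26 GR and 63 Pol II at 4 hours, and 82.2% were listed as open on day 1.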
